A study of Arabidopsis thaliana with 6 samples.

Results

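Class III peroxidases are secreted haem enzymes of plants, encoded by a large gene family. In the cell wall they use hydrogen peroxide to oxidise phenolic compounds, which links lignin precursors and wall proteins and stiffens the wall, and they can also produce reactive oxygen species that loosen it. In roots they are known from growing root hairs, from the Casparian strip (the lignin ring that seals the endodermis) and from the passage of cells from division to elongation.

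Their transcripts were measured in 2 pieces of the root apex of 8-day-old wild-type Arabidopsis thaliana seedlings (Col-0), grown on solid medium in continuous light and fixed in RNAlater. Zone II was a section of 1.5 mm that held the elongation and root hair zones, and zone I was the terminal piece of 0.5 mm, which held the cap and the dividing cells. Each zone was measured on 3 arrays. Since no label states that the 3 stem from separate plantings, p-values here reflect only how far these arrays scatter, part of which may be technical. Members were the probe sets with a nuclear locus whose deposited annotation reads peroxidase with a number or "peroxidase, putative", without the glutathione, ascorbate and thioredoxin peroxidases and the peroxiredoxins. PER64, a peroxidase of the Casparian strip, was set aside by the same rule.

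The rule found 60 of 22746 probe sets. Of these, 59 are annotated as peroxidases, and 1 is OCP3, a transcription factor whose full name contains the word peroxidase. OCP3 had signals of 386.0, 411.5 and 308.4 on the zone II arrays, against 339.8, 465.7 and 356.0 on the zone I arrays, and it is left out of the counts below. A member is named by the PER number in its deposited annotation, failing that by its RefSeq gene symbol, and failing both by its locus. Of the 59 probe sets, 5 are of the s_at kind, which can read near-identical copies. No probe set can be compared with another in level, so values are compared between zones and arrays within a gene only. The exceptions are the summed signals of marker genes, in which the brightest probe sets weigh most, the signal cutoffs, and the words dim and bright. Such cutoffs and words set probe sets beside each other in level and are only rough.

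Marker genes went with the labels of the pieces. All 6 root hair markers, 7 endodermis markers, 5 xylem markers and 3 phloem markers were called higher in zone II (18.1% of all probe sets). In turn, 4 of 4 measured markers of dividing cells and 3 of 4 of the root cap were called higher in zone I (19.8% of all probe sets). The root cap marker BRN2 lay toward zone I without passing (-3.01, limma adjusted p = 0.0714). No marker was listed at 0. RBCS1A, a gene of green tissue on an s_at probe set, had 2435, 1489 and 705.2 in zone II, against 182.8, 409.3 and 139.5 in zone I, and its part in the results below was not tested. Median signals per array lay between 132.1 and 149.3. In such bulk pieces, fewer cells of a type and less RNA per cell cannot be told apart.

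The peroxidase family lay mostly on the zone II side. At an adjusted p under 0.05 (limma), 30 of the 59 members differed between the zones, against 37.9% of all probe sets tested. Zone II was the higher one for 29 members (49.2%, against 18.1% of all probe sets) and zone I for 1 member (1.69%, against 19.8% of all probe sets), and 29 did not pass. The median log2 difference, zone II minus zone I, was 1.84 over the members and -0.04 over all probe sets. With 64 added to every signal, which damps differences made of very dim signals, the medians were 0.88 and -0.01. The 3 zone II arrays lay above all 3 zone I arrays for 30 members (50.8%, against 23.5% of all probe sets), and the zone I arrays lay above for 4 members (26.4% of all probe sets).

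The calls ranged widely in size. The 29 members higher in zone II had log2 differences of 0.89 to 10.76 with a median of 4.21. Of all 59 members, 22 were called and at least 8-fold higher in zone II, as were 1403 of all 22746 probe sets (6.17%). With 64 added, 15 of the 29 were at least 8-fold higher. The share of all probe sets on that scale was not counted. For 18 of the 29 the mean signal in zone I was under 64, so the size of those differences rests on dim zone I signals.

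**Figure D1:**
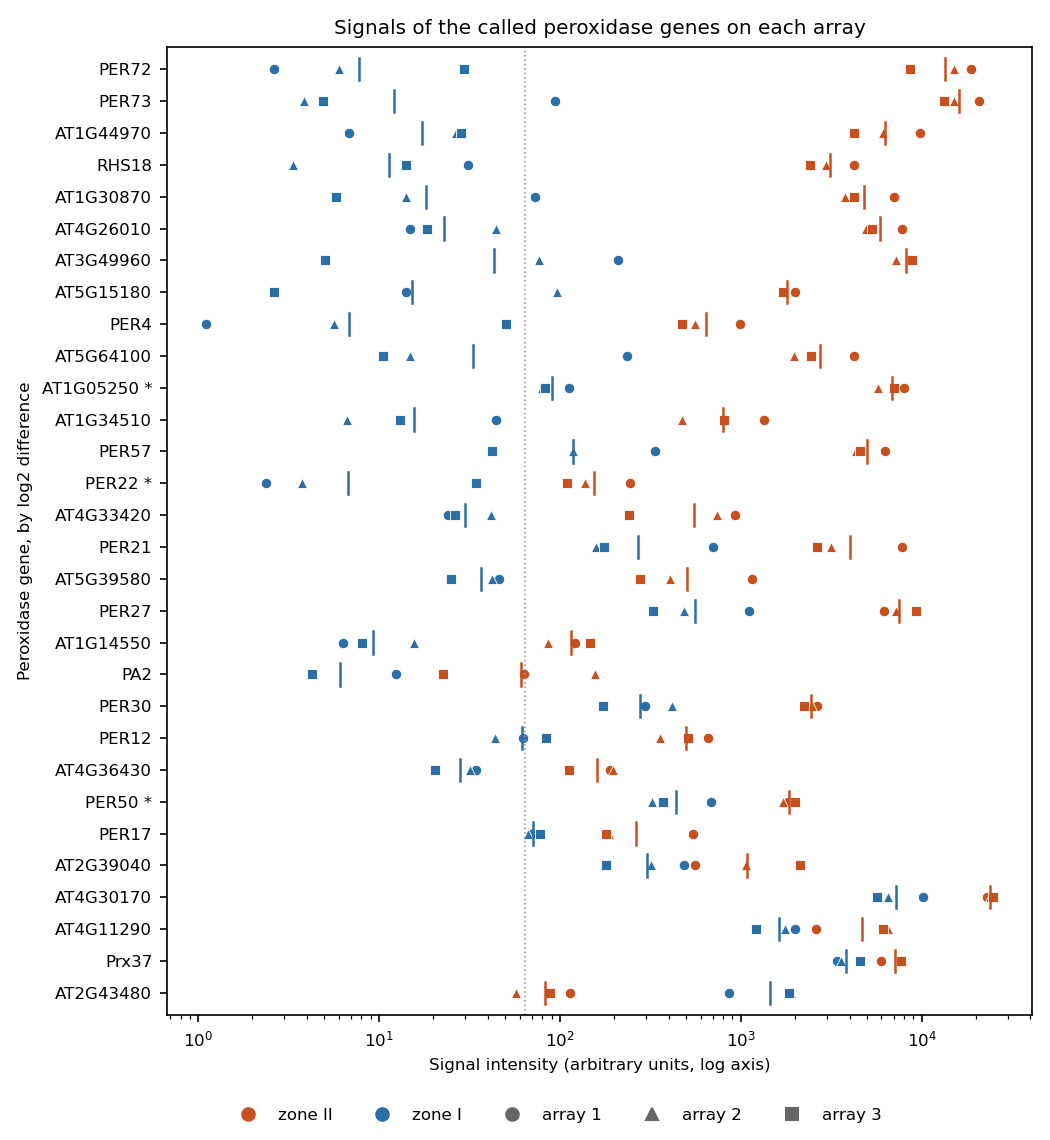
Signal intensity (log axis, arbitrary units) on each array for the 30 called peroxidase genes, with zone II in orange and zone I in blue, ordered by log2 difference. Symbols mark the arrays, vertical bars the geometric means of 3 arrays, the dotted line a signal of 64, and stars the probe sets of the s_at kind; AT2G43480, in the bottom row, is the gene with zone I above zone II.

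Of the peroxidases known from root hairs, all 5 measured were higher in zone II, against 49.2% of the family and 18.1% of all probe sets. Their log2 differences were 6.24 to 10.38. PER73, also called RHS19 (root hair specific 19), is known to act in root hair growth. Its signal was 20874, 15206 and 13304 on the zone II arrays, against 94.0, 3.83 and 4.92 on the zone I arrays. The zones were far apart, and zone I array 1 stood above the other zone I arrays. The log2 difference was 10.38 ± 0.94 (SE, n = 3 per zone; adjusted p = 1.34e-05), and 7.49 with 64 added.

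AT4G26010, another peroxidase known from root hair growth, had signals of 7800, 4928 and 5304 in zone II, against 14.8, 44.5 and 18.4 in zone I. Here no zone I array reached 64. The log2 difference was 8.00 ± 0.40 (SE, n = 3 per zone; adjusted p = 9.58e-07), and 6.06 with 64 added. RHS18, named for its root hair expression, and AT1G30870 lay at 8.10 and 8.06 (5.33 and 5.75 with 64 added).

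The fifth root hair member was read by an s_at probe set that the deposited table places at AT1G05250 and its annotation at AT1G05240, so these 2 genes cannot be told apart. It gave 8021, 5716 and 7015 in zone II, against 112.7, 80.2 and 82.5 in zone I. Its arrays were close together within each zone, and its difference of 6.24 ± 0.23 (SE, n = 3 per zone) had the smallest adjusted p of the family, 1.64e-07. The root hair markers COBL9, EXPA7, EXPA18, LRX1, PRP3 and RSL4 were all higher in zone II too, with a summed signal of 31999 to 43277 in zone II, against 160.1 to 540.8 in zone I, and their part in the result was not tested.

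Of 6 peroxidases known from lignin formation, 4 were higher in zone II, against 49.2% of the family and 18.1% of all probe sets. PER72, which acts in lignin formation and is one of the peroxidases of the Casparian strip, had the largest log2 difference of the family. Its signal was 18715, 15153 and 8577 in zone II, against 2.62, 5.98 and 29.6 in zone I. The log2 difference was 10.76 ± 0.71 (SE, n = 3 per zone; adjusted p = 3.49e-06), or 7.48 with 64 added, where it was level with PER73.

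AT1G44970, known from the Casparian strip and from pollen development, had signals of 9784, 6106 and 4210 in zone II, against 6.80, 26.7 and 28.3 in zone I. Zone II array 1 was the highest for both genes and array 3 the lowest. The difference was 8.51 ± 0.53 (SE, n = 3 per zone; adjusted p = 2.33e-06), or 6.25 with 64 added. The markers of the endodermis barrier, CASP1 to CASP5, ESB1 and MYB36, had a summed signal of 58586, 50471 and 35652 on zone II arrays 1, 2 and 3, against 233.4 to 256.1 on the zone I arrays, and their part in these results was not tested.

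PER4, reported in stem lignin, lay at 6.55 (3.14 with 64 added). PER17, a peroxidase reported in lignified tissue, had signals of 548.1, 186.4 and 179.1 in zone II, against 69.4, 66.6 and 78.0 in zone I. Zone II array 1 was far above the other zone II arrays. The difference of PER17 was 1.89 ± 0.51 (SE, n = 3 per zone; adjusted p = 0.0122), and without zone II array 1 it was 1.36 with an adjusted p of 0.0584.

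The lignin members that did not pass were PRX52 and AT5G64120. PRX52, known from lignin of interfascicular fibres in stems, was dim in both zones, with 12, 33.9 and 7.70 in zone II and 10.4, 55.8 and 8.06 in zone I. AT5G64120, with PRX71 among its RefSeq synonyms and known to restrict cell growth by strengthening the wall, had 311.7, 80.2 and 25.2 in zone II, against 35.6, 4.07 and 36.4 in zone I. Its zone II arrays spread over more than its difference between zones (2.30 ± 1.14, SE, n = 3 per zone; adjusted p = 0.144).

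UPBEAT1 (UPB1) is a transcription factor that represses peroxidases where cells leave division. Of 3 peroxidases reported as its targets, 2 were higher in zone II, against 49.2% of the family and 18.1% of all probe sets. PER57 had signals of 6265, 4331 and 4565 in zone II, against 338.0, 117.7 and 42.2 in zone I. Zone I array 1 was again the highest of its zone. The difference was 5.39 ± 0.57 (SE, n = 3 per zone; adjusted p = 3.31e-05), or 4.67 with 64 added.

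AT4G11290 had 2607, 6482 and 6104 in zone II, against 1992, 1756 and 1213 in zone I. The zones did not overlap, but zone II array 1 came close to the zone I arrays. The difference was 1.53 ± 0.33 (SE, n = 3 per zone; adjusted p = 0.00326, and 0.0502 without the intensity trend in the variance).

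PER40, which is known from pollen development too, had 254.1, 961.7 and 1428 in zone II, against 574.5, 466.0 and 183.8 in zone I. Zone II array 1 lay among the zone I arrays, and the difference of 0.94 ± 0.59 (SE, n = 3 per zone) did not pass (adjusted p = 0.251). Without zone II array 1 it was 1.68 with an adjusted p of 0.0116. UPB1 itself had 558.5, 2263 and 4581 in zone II, against 2299, 604.8 and 782.9 in zone I, and did not pass (0.80 ± 0.67, SE, n = 3 per zone; adjusted p = 0.399).

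Among relatives of the horseradish C1 enzyme, Prx37 had the smallest difference of the called members. Its signals were 6000, 7817 and 7657 in zone II, against 3402, 3606 and 4567 in zone I. The arrays of each zone were close together, and the difference of 0.89 ± 0.18 (SE, n = 3 per zone) passed with an adjusted p of 0.0023. Its neighbour AT4G08780 was dim, with 25.8, 48.1 and 68.3 in zone II, against 3.32, 15.0 and 44.0 in zone I (adjusted p = 0.236).

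The remaining 43 members had no role assigned here. Of these, 17 were higher in zone II (39.5%, against 18.1% of all probe sets). Only 1 was higher in zone I (2.33%, against 19.8% of all probe sets). AT3G49960 had 8767, 7267 and 8820 in zone II, against 209.2, 77.2 and 5.02 in zone I. Its zone II arrays were alike and its zone I arrays spread widely. The difference was 7.57 ± 1.00 (SE, n = 3 per zone; adjusted p = 0.000147), or 5.91 with 64 added.

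AT5G64100 had 4249, 1975 and 2443 in zone II, against 235.0, 14.9 and 10.5 in zone I (a difference of 6.36 ± 0.93, SE, n = 3 per zone; adjusted p = 0.000279; 4.54 with 64 added). AT5G15180 had 1996, 1708 and 1707 in zone II, against 14.1, 96.4 and 2.62 in zone I (a difference of 6.88 ± 0.98, SE; adjusted p = 0.000244; or 4.31 with 64 added). PER27 had 6174, 7253 and 9285 in zone II, against 1117, 486.0 and 326.1 in zone I (3.73 ± 0.37, SE; adjusted p = 2.20e-05). All 4 genes had no overlap between zones. In AT3G49960, AT5G64100 and PER27 zone I array 1 was the highest of its zone.

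The other 13 members of this kind that were higher in zone II differed in size. AT1G34510, AT4G33420, PER21, AT5G39580, PER30 and PER12 lay at 5.68, 4.21, 3.90, 3.80, 3.14 and 3.01, and at 3.38, 2.73, 3.57, 2.52, 2.86 and 2.15 with 64 added. PER50, AT2G39040 and AT4G30170 lay lower, at 2.08, 1.84 and 1.73. AT4G30170 had the tightest zone II arrays of the called members, with 23066, 24049 and 24727, against 10191, 6526 and 5696 in zone I.

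PER22, AT1G14550, PA2 and AT4G36430 had zone I means between 6.06 and 28.1. They lay at 4.52, 3.63, 3.33 and 2.52, and only at 1.54, 1.29, 0.93 and 1.29 with 64 added. PA2, a peroxidase whose crystal structure is known, had 63.8, 156.5 and 22.7 in zone II, against 12.5, 4.19 and 4.25 in zone I, and its call was lost without zone II array 1 (3.30) or 2 (2.65) and without zone I array 2 (3.06) or 3 (3.07). PER22 lost its call without the first array of both zones (3.44, adjusted p = 0.0648), and AT2G39040 without the intensity trend (adjusted p = 0.0740). PER22 and PER50 were read by s_at probe sets that the table places at AT2G38390 and AT4G37530, neighbours of the genes in their annotation, so which copy was read is uncertain.

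**Figure D2:**
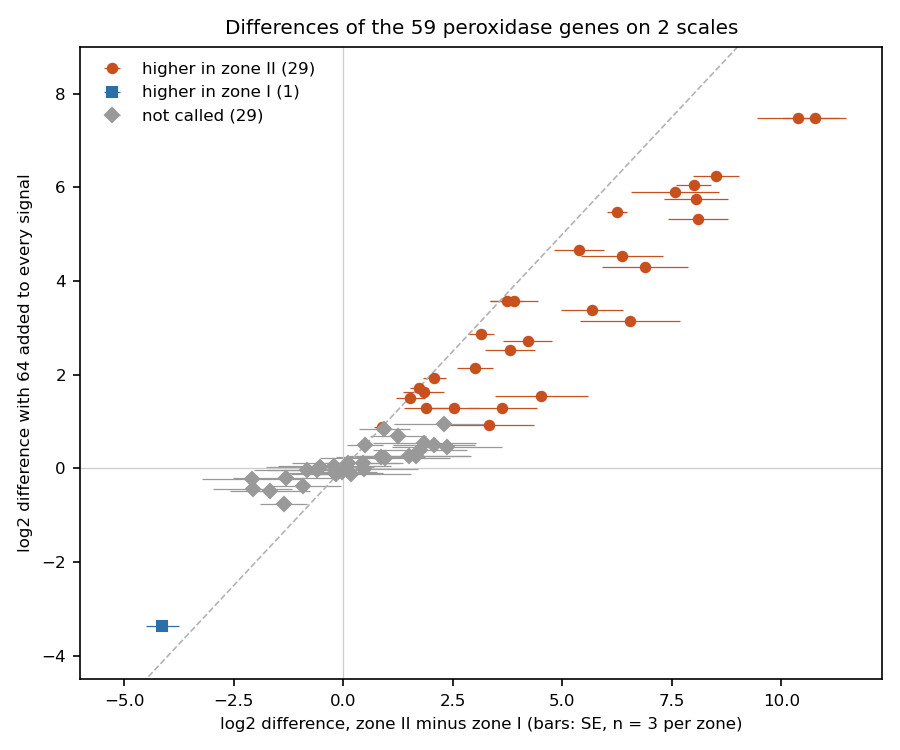
The log2 difference, zone II minus zone I, of each of the 59 peroxidase genes from the plain signals (horizontal axis, bars are SE, n = 3 per zone) and with 64 added to every signal (vertical axis). Points far below the dashed line of equality, such as PER4 (6.55 and 3.14) and PER22 (4.52 and 1.54), owe much of their plain difference to dim zone I signals.

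Toward zone I, 1 member passed. AT2G43480 had 113.3, 57.0 and 88.7 in zone II, against 867.0, 1906 and 1852 in zone I. The zones did not overlap, and zone I array 1 was the lowest of its zone. The log2 difference was -4.13 ± 0.38 (SE, n = 3 per zone; adjusted p = 1.45e-05), a level 17.5-fold higher in zone I, and -3.36 with 64 added. The root cap markers SMB, BRN1, BRN2 and FEZ had a summed signal of 45 to 194.9 in zone II, against 336.7, 1130 and 1151 on zone I arrays 1, 2 and 3, and those of dividing cells 138.5 to 887.0 in zone II, against 2754 to 4612 in zone I. Their part in the result was not tested.

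A further 3 members had all zone I arrays above the zone II arrays without passing. AT5G40150 had 40.3, 50.4 and 58.5 in zone II, against 128.4, 143.0 and 109.2 in zone I (-1.36 ± 0.53, SE, n = 3 per zone; adjusted p = 0.0648). It passed with 64 added (-0.75, adjusted p = 0.0271). AT3G03670 and AT1G49570 lay at -2.07 and -2.09 (adjusted p = 0.0948 and 0.180) and had zone I means of 33.3 and 11.1. AT3G03670 passed with 64 added (-0.43, adjusted p = 0.0383). On the zone II side, AT4G17690 had no overlap without passing. It had 42.9, 52.6 and 37.1 in zone II, against 22.4, 12.4 and 4.10 in zone I. Its difference was 2.07 ± 0.94 (SE, n = 3 per zone, limma adjusted p = 0.113). With 64 added it passed (0.50, adjusted p = 0.0442).

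Of the 29 members that did not pass, 22 had mean signals under 64 in both zones, against 6804 of 14123 among all probe sets that did not pass. The differences of these 22 members ranged from 2.37 for AT4G25980 to -2.09 for AT1G49570. AT3G03670 and AT4G17690, given above, are among them. PA2, which averaged 60.9 in zone II, against 6.06 in zone I, is as dim and is counted among the 29 members higher in zone II. Differences between signals this low are uncertain, whether they passed or not. Over the whole family 23 members (39.0%) were this dim, against 30.7% of all probe sets. Among the brighter members that did not pass, AT2G18980 had 1197, 2970 and 5240 in zone II, against 1922, 1696 and 2010 in zone I (0.50 ± 0.41, SE, n = 3 per zone; adjusted p = 0.387). AT3G28200 had 118.2, 329.5 and 510.2 in zone II, against 192.1, 281.5 and 515.2 in zone I (-0.16 ± 0.53, SE, n = 3 per zone; adjusted p = 0.849). In both genes the arrays of zone II spread over a wider range than the zones differed.

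In the authors' deposited table, 27 of the 59 members had a positive and 4 a negative log2 fold change at an adjusted p under 0.05, against 20.0% and 25.6% of all probe sets. Of the 30 members called here, 28 passed in the authors' deposited table as well. That overlap was not counted over all probe sets called here. The authors' values were deposited with these same arrays, so the overlap is not independent support. AT1G14550 and PA2 did not, with a log2 fold change of 0.16 and 0.62 in the authors' deposited table. The negative ones in the authors' deposited table were AT2G43480 (-4.13), AT5G40150 (-1.0), AT2G24800 (-0.71) and AT2G34060 (-0.52).

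The zone II arrays did not carry the same peroxidases at the same level. Among the 34 members with a zone II mean of 64 or more, 10 were more than 1.5-fold higher on zone II array 1 than on both other zone II arrays, among them PER17, PER21, PER4, AT5G39580 and AT5G64120. On the same array 6 were more than 1.5-fold lower than on both others, namely AT2G39040, AT4G11290, AT5G06730, PER40, AT2G18980 and AT3G28200. For arrays 2 and 3 the counts higher than both others were 1 and 3, and the counts lower were 2 and 4. This grouping was made after the values were seen. The same 1.5-fold counts were not made over all 22746 probe sets. There, zone II array 1 was the highest zone II array for 8277 and the lowest for 7795. Without zone II array 1, AT2G18980 passed as higher in zone II (1.08, adjusted p = 0.00474), as did PER40.

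On zone II array 1 the markers of dividing cells summed to 887.0, against 145.0 and 138.5 on zone II arrays 2 and 3, and the root hair markers to 43277, against 32825 and 31999. The zone I arrays differed too. Of the 29 members higher in zone II, 17 had their highest zone I signal on zone I array 1 and 8 their lowest. Of the 29 members that did not pass, 5 had their highest zone I signal on that array and 15 their lowest, and of all 22746 probe sets 6680 had their highest there and 8927 their lowest. On zone I arrays 1, 2 and 3 the root hair markers summed to 540.8, 326.6 and 160.1, the xylem markers to 1207, 572.4 and 308.5, and the root cap markers to 336.7, 1130 and 1151. How these marker levels bear on the peroxidase values was not tested.

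**Figure D3:**
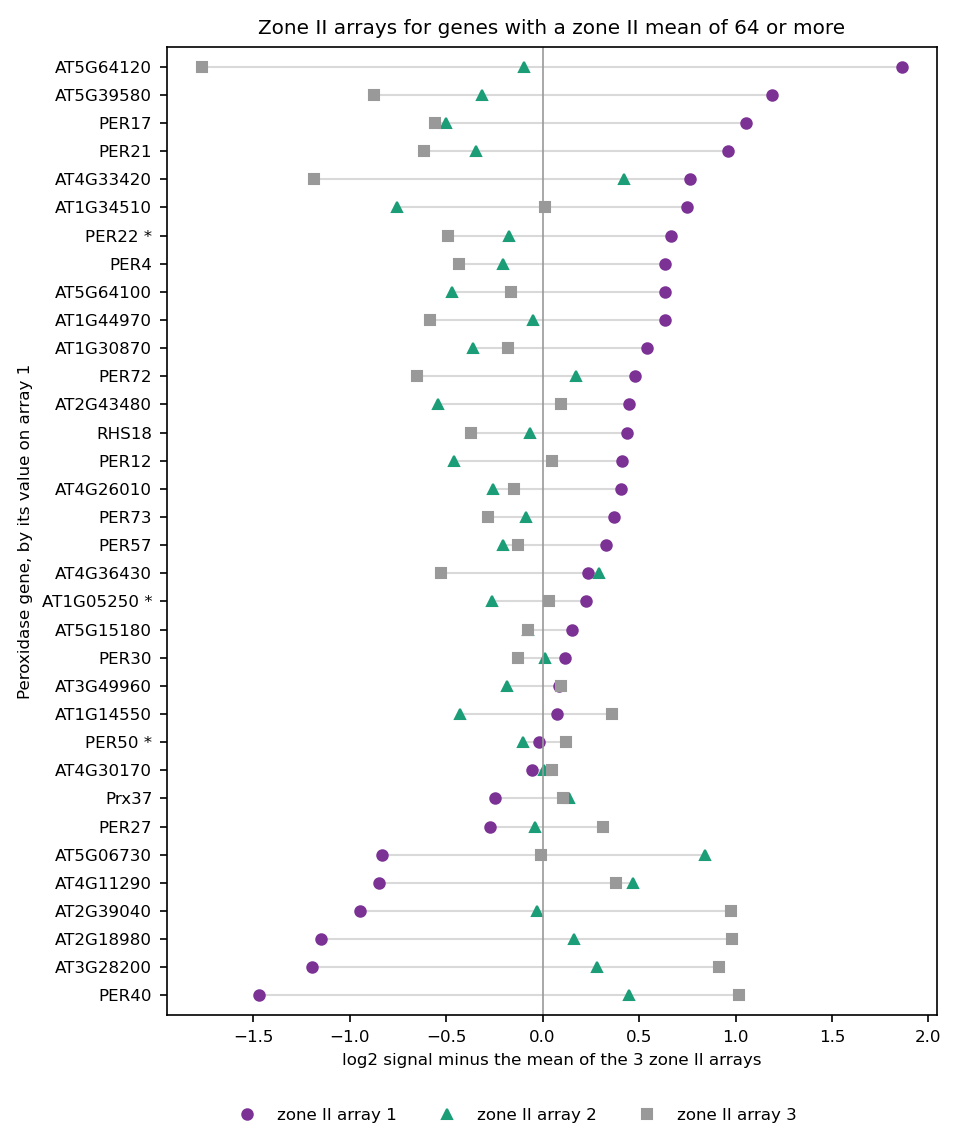
For each of the 34 peroxidase genes with a mean zone II signal of 64 or more, the log2 signal on each zone II array minus the mean of the 3 (horizontal axis), ordered by array 1; stars mark s_at probe sets. Array 1 (circles) was highest for the genes at the top, such as PER17 and PER21, and was more than 1.5-fold below both other arrays for the 6 genes at the bottom, from AT5G06730 to PER40.

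Neighbouring genes of the family did not always share a call. By the order of genes in the RefSeq annotation, 8 pairs of members lie next to each other or with at most 2 genes between. In 4 pairs both members had the same call, and in 1 of these, PER4 and AT1G14550, both were higher in zone II (6.55 and 3.63). In the rest of these 4 pairs neither member passed. Over the family, 29 of 59 members were called toward zone II and 29 were not called. The share of members with the same call was not counted for pairs that are not neighbours. In the row AT5G64100, AT5G64110 and AT5G64120 the differences were 6.36, 1.50 and 2.30, and the first passed. AT4G26010, at 8.00, has AT4G25980 nearby at 2.37 (adjusted p = 0.170), and PA2, at 3.33, has AT5G06730 beside it at 1.24 (adjusted p = 0.156). The differences between neighbours were not tested.

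Lists of genes related to the oxidant of these enzymes and to their lignin substrates were set beside them. Of 14 genes of hydrogen peroxide production and its regulation, 8 passed toward zone II and 2 toward zone I, against 18.1% and 19.8% of all probe sets (median 2.26, or 1.57 with 64 added). All 8 were NADPH oxidases, the RBOH enzymes that make the superoxide from which hydrogen peroxide forms. RBOHB had 2244, 1267 and 1276 in zone II, against 84.8, 49.1 and 13.2 in zone I (5.34 ± 0.59, SE, n = 3 per zone; adjusted p = 4.51e-05). RBOHC, which is needed for root hair growth, lay at 3.13, and RBOHF, which acts at the Casparian strip, at 1.82. The superoxide dismutases CSD2 and CSD3 were the genes higher in zone I, at -1.44 and -0.86.

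The monolignol pathway, which makes the lignin precursors, passed toward zone II in 14 of 17 genes (18.1% of all probe sets) and toward zone I in none (19.8% of all probe sets; median 3.10, or 2.74 with 64 added). The largest difference was that of 4CL1, which activates the phenolic acids. It had 5025, 4373 and 3660 in zone II, against 71.1, 1.55 and 49.8 in zone I (7.94 ± 1.11, SE, n = 3 per zone; adjusted p = 0.000213; 5.45 with 64 added). The genes that did not pass were PAL3, 4CL3 and FAH1, and of these 4CL3 was bright, with 1395, 1352 and 1568 in zone II, against 1800, 1120 and 1281 in zone I. FAH1, which leads to the syringyl type of lignin, was below 64 on every array.

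Laccases, copper enzymes that also oxidise monolignols, passed toward zone II in 8 of 16 measured genes (18.1% of all probe sets) and toward zone I in none (19.8% of all probe sets; median 1.83, or 0.79 with 64 added). LAC3, which is known from the Casparian strip, had the largest difference, with 6265, 3913 and 3527 in zone II, against 54.6, 62.3 and 5.96 in zone I (7.34 ± 0.73, SE, n = 3 per zone; adjusted p = 2.27e-05; 5.47 with 64 added). The laccases that did not pass were mostly dim, with 6 of 8 averaging under 64 in both zones. Of all probe sets that did not pass, 6804 of 14123 were this dim.

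**Figure D4:**
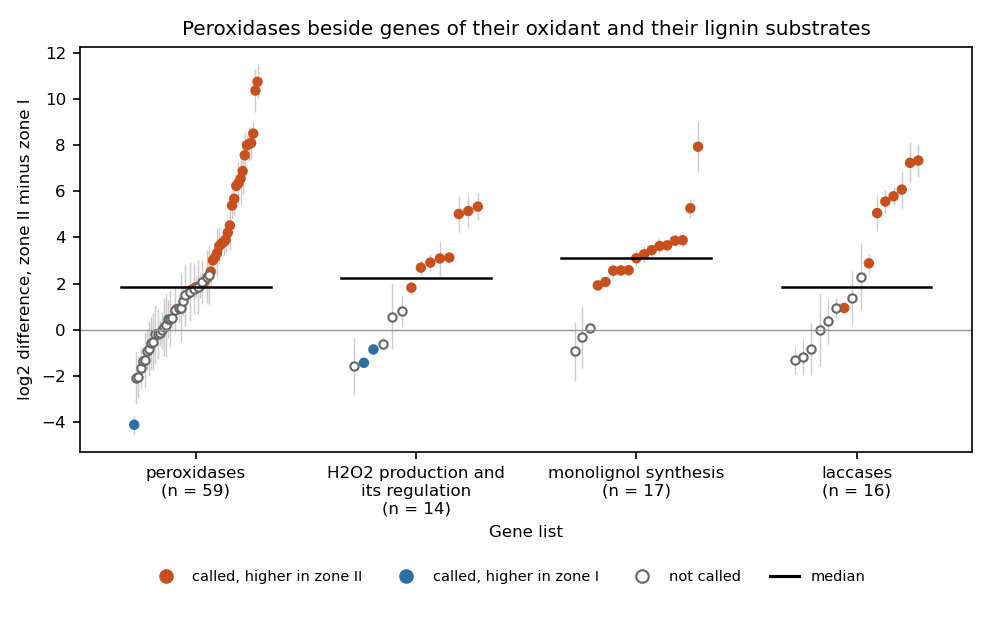
The log2 difference, zone II minus zone I, of each gene (points, bars are SE, n = 3 per zone) for the 59 peroxidases, 14 genes of hydrogen peroxide production and its regulation, 17 monolignol genes and 16 laccases, sorted within each list. Filled points passed at an adjusted p under 0.05, open points did not, and black lines are the list medians of 1.84, 2.26, 3.10 and 1.83.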

How the data were processed

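The authors deposited signal intensity values for 22810 probe sets on 6 arrays, made with Affymetrix Expression Console and MAS5, per the submitters' processing notes. No version, setting, array design or genome build is stated there. RNA was amplified before labelling, per the labels' protocols. The intensities are linear and share a mean of about 500 per array after trimming 2% at each end, and no detection calls came with them. The authors also deposited for each probe set the log2 fold change of their own comparison with its p-values, plain and adjusted, by a test that is not named. Its sign was read as zone II relative to zone I, since it correlated with that difference (r = 0.87 across probe sets, which are not independent).

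The 64 control probe sets were removed. Log2 signals of the other 22746 were tested with limma 3.58.1 under R 4.3.3 (lmFit, then eBayes with its trend option, two-sided, no block), and p-values were adjusted over all of them by Benjamini-Hochberg. Differences are zone II minus zone I. Genes were named through the deposited table and RefSeq (TAIR10.1), and all 59 peroxidase loci were found there. The neighbours of genes come from that annotation. Values on each array are given for the 2 called members with the largest difference (64 added) in each role group, the 4 largest outside the groups, each called member higher in zone I, and the 3 brightest members that did not pass; further ones were added after their values were seen. The members, role groups and lists were chosen with earlier results of these data known.

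Same-numbered arrays of the zones did not deviate together (correlations of 0.00406, 0.036 and 0.0373), so the numbers were not used as pairs. In data simulated for the zone comparison, 200 of 22746 probe sets were changed. Of these changes, 30% of the 4-fold and 56% of the 16-fold ones were recovered, with 2 false calls among 88. In the real comparison 8623 probe sets were called, so its p-value adjustment was less strict. The simulated shares therefore do not give the share of changes found in the real data. The number of arrays limits the precision. Figures were drawn with matplotlib 3.10.9 under Python 3.11.15.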

Additional observations from a re-analysis of the deposited data

How the results depend on the processing

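The count of peroxidases higher in zone II stayed between 24 and 30 over 16 alternatives, where 24 came from a filter at the 40th percentile of the mean log2 signal, which kept 30 of 59 members. The count of 30 came with 64 added, through AT4G17690. Of the 29, 24 kept their call under every alternative that tested them. The exceptions were PER22, PA2, PER17, AT2G39040 and AT4G11290. The 40th percentile filter removed the called members PER4, PER22, AT1G14550, PA2 and AT4G36430, so it did not test them. The share of all called probe sets that kept their call was not counted. The count higher in zone I was 1 and became 3 with 16 added, 3 with 64 added, 3 without the intensity trend, 2 with quantile normalization and 2 with the 40th percentile filter, through AT5G40150 and AT3G03670. The median difference of 1.84 was 3.77 with that filter, which removed dim members, and 1.10 with 16 added. Leaving out single arrays gave 28 to 29 members higher in zone II, 1 higher in zone I and medians of 1.68 to 2.02. With the replicate number as a block the counts were 29 and 1, with 8445 calls in all against 8623. No called member reversed. The signals carry no detection calls, so members under 64 in both zones cannot be called absent.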

Other observations

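Beyond the annotation rule, 7 further class III peroxidases were looked up by locus or symbol. They are annotated as peroxidases without a number or under another name, and other genes of the family may have been missed. Among the 7, 3 passed toward zone II and 1 toward zone I, against 18.1% and 19.8% of all probe sets. AT5G51890, known from lignin of xylem vessels, averaged 3057 in zone II, against 91.5 in zone I (5.06 ± 0.25, SE, n = 3 per zone; limma adjusted p = 9.29e-07). PRXCA, on a probe set of the s_at kind, lay at 5.69 ± 1.25 (SE, n = 3 per zone), or 2.88 with 64 added. Its zone II arrays spread widely, with 1910, 421.9 and 172.6. RCI3, a cold-induced gene that is one of the peroxidases of the Casparian strip, lay at 1.38. PRXR1 was bright and nearly level, averaging 7919 in zone II, against 8231 in zone I (-0.06 ± 0.15, SE, n = 3 per zone; adjusted p = 0.810). AT5G24070 averaged 6.14 in zone II, against 189.8 in zone I (-4.95 ± 0.81, SE, n = 3 per zone, limma adjusted p = 0.000595), or -1.9 with 64 added. Of the peroxidase genes examined here, it and AT2G43480 were the ones called higher in zone I.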
